A study of Bos taurus with 12 samples.

Results

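Genes of fatty acid synthesis and desaturation, 4 of the 24616 in the count table, were followed in RNA from bovine milk fat. They were taken by their Ensembl cattle gene IDs, with no cut on values but with earlier results of these data known. The symbols are those that came with the IDs: ACACA (ENSBTAG00000017567), FASN (ENSBTAG00000015980), SCD (ENSBTAG00000045728) and SREBF1 (ENSBTAG00000007884). All 4 passed the filter on low counts. RNA came from the fat layer of milk of 6 Holstein cows in early lactation. Each cow gave 1 control library and 1 library with lysine supplied beyond the rumen, so there were 6 control and 6 lysine libraries. The treatment label of the lysine libraries says 63 days, while their titles and descriptions carry 63 only as a code with no unit; the labels give no age, no dose and no diet, and the breed and stage of lactation are shared by both groups. Milk fat globules enclose some cytoplasm of the secretory cells, so this RNA samples the gland only through what those cells release. The identity of the cells could not be checked against marker genes, because no table used here links the other IDs to symbols.

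The mammary gland makes part of milk fat itself. Acetyl-CoA carboxylase, the product of ACACA, makes malonyl-CoA, the committed step of fatty acid synthesis, and fatty acid synthase, the product of FASN, builds the short and medium chains typical of ruminant milk from it. Stearoyl-CoA desaturase, the product of SCD, places a cis double bond in stearic and vaccenic acid and so forms oleic acid and the conjugated linoleic acid of milk. SREBF1 encodes SREBP-1, a membrane-bound transcription factor that is released by cleavage and switches on genes of lipid synthesis.

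Library totals ran from 5446799 to 56550977 counts, a 10.4-fold range. The scaling factors that correct for the make-up of a library (TMM, trimmed mean of M-values) were lowest in cow 4383 with lysine (0.444) and highest in cow 4394 without it (1.41). Levels below are normalised CPM, counts scaled to a common library size with TMM. They are not divided by transcript length, so they are compared between libraries and not between genes. Counting error was small for ACACA, FASN and SCD: the lowest count was 3713 for ACACA, 23621 for FASN and 6186 for SCD. For SREBF1 it was 245, with an exact 95% Poisson interval of 215 to 278 that covers counting error only. Whether levels follow library depth is a separate question, which these counts do not answer. In RNA of this kind, fewer cells of a type and less RNA per cell cannot be told apart.

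The 4 genes were abundant in milk fat RNA, and none passed the test for a change with lysine. By mean normalised CPM, FASN ranked 10 of the 11323 genes tested, SCD 19, ACACA 39 and SREBF1 617. Within single libraries FASN stayed between ranks 9 and 16, while SREBF1 moved between ranks 296 and 2106. ACACA stayed between ranks 25 and 110 and SCD between 12 and 32. These ranks rest on counts, which longer transcripts collect more of, and they place each gene among all others in a library without ordering the 4 among themselves.

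ACACA, the carboxylase, measured 422 normalised CPM in the lowest control library, 673 at the median and 913 in the highest. The lysine libraries gave 423, 736 and 1663. The groups overlapped, and the 2 highest values were the lysine libraries of cows 4381 (1502) and 4383 (1663). Means were 677 ± 157 in control and 917 ± 544 in lysine libraries (SD, n = 6 each), so the coefficient of variation was 23.3% and 59.3%.

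FASN, the synthase, measured 2550, 4591 and 5715 normalised CPM (lowest, median, highest) without lysine, and 1378, 3824 and 4153 with it. The groups overlapped here too. Of the 6 lysine libraries, 5 lay close together, from 3685 to 4153, and the remaining one, from cow 4345, was at 1378. The control library of cow 4345 was also the lowest of its group. Means were 4208 ± 1297 in control and 3473 ± 1039.8 in lysine libraries (SD, n = 6 each).

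SCD, the desaturase, measured 1046, 1225 and 2761 normalised CPM in the control group. The lysine group gave 673, 1247 and 2587, over much the same range. Its means were nearly equal, 1514 ± 672 and 1518 ± 783 (SD, n = 6 each), although single cows moved by more than 2-fold in both directions. In cow 4319 SCD was at 2761 without lysine, the highest of all 12 libraries, and at 978 with it. In cow 4383 it went the other way, from 1046 to 2373.

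SREBF1, the transcription factor gene, measured 37.8, 68.8 and 108 normalised CPM in the control group. The lysine group gave 30.2, 59.0 and 143, overlapping at both ends. Its means were 73.4 ± 24.3 and 73.0 ± 44.4 (SD, n = 6 each). The same cows stood out as for SCD: cow 4319 went from 108 to 38.7 and cow 4383 from 64.6 to 143.

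**Figure D1:**
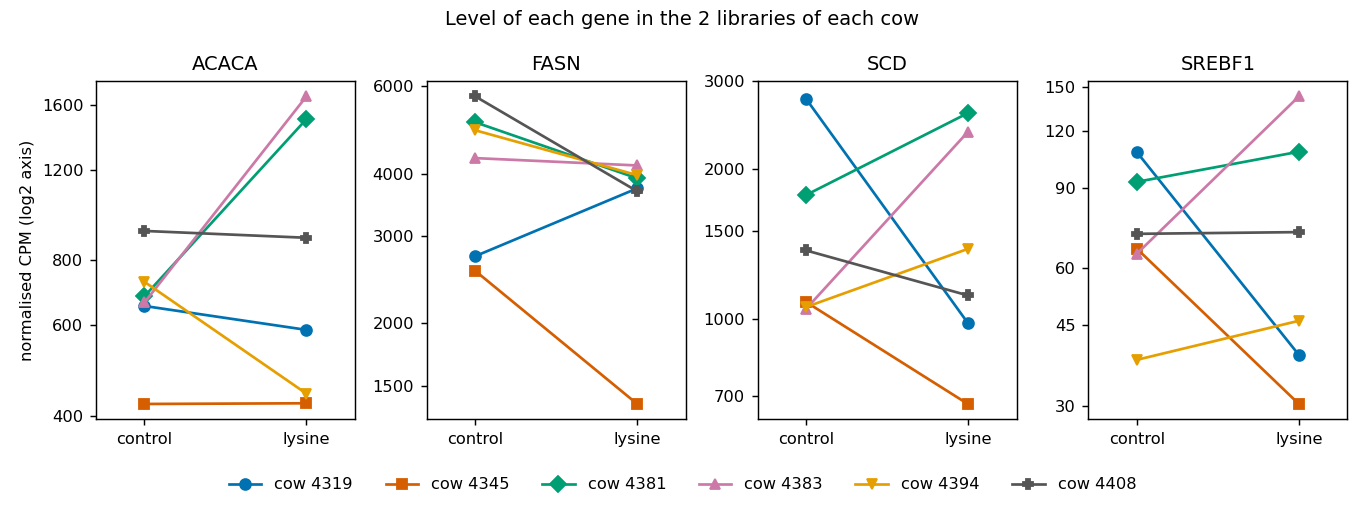
Normalised CPM (log2 axis) of ACACA, FASN, SCD and SREBF1 in the control and the lysine library of each of the 6 cows, 1 point per library and 1 line per cow. FASN lines slope down in 5 of 6 cows, while SCD and SREBF1 lines run both ways, steeply down in cow 4319 and up in cow 4383.

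The comparison of lysine with control, each cow against itself, asked whether postruminal lysine changed these transcripts in the gland. None of the 4 genes was called, against 0% of all 11323 genes tested (0 genes; quasi-likelihood test of edgeR blocked by animal, adjusted p under 0.05 by Benjamini-Hochberg over all genes). At an unadjusted p under 0.05 there were 0 of the 4 genes, and 286 of all genes, or 2.53%; DESeq2 and limma voom called 0 genes too, with 543 and 584 at an unadjusted p under 0.05. The median log2 fold change of the 4 genes was -0.10, beside 0.04 over all tested genes.

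FASN was lower with lysine in 5 of 6 cows. Its log2 fold change was -0.30 ± 0.22 (SE, 6 cows), or 0.812-fold, with a 95% interval of 0.579 to 1.14-fold (edgeR, unadjusted p = 0.206, adjusted p = 1). At least 5 of 6 cows were lower for 10.7% of all genes tested, and all 6 went one way for 3.04%, none of the 4 among them. The cow that went against the others was 4319, at 1.37-fold, and the lowest was cow 4345, at 0.540-fold. The direction was the same in all 14 alternative fits, with values from -0.62 (totals as the scaling) to -0.17 (without cow 4345).

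ACACA was higher with lysine in 3 of 6 cows, by 2.51-fold in cow 4383 and 2.20-fold in cow 4381, and lower by most in cow 4394, at 0.608-fold. Its log2 fold change was 0.25 ± 0.28 (SE), with a 95% interval of 0.786 to 1.81-fold (edgeR, unadjusted p = 0.376, adjusted p = 1). Leaving out cow 4383 gave 0.04, leaving out cow 4381 gave 0.07 and leaving out cow 4394 gave 0.45.

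SCD and SREBF1 gave log2 fold changes of -0.05 ± 0.32 and -0.15 ± 0.31 (SE), with 95% intervals of 0.597 to 1.55-fold and 0.568 to 1.43-fold (edgeR, unadjusted p = 0.867 and 0.633, adjusted p = 1 for both). SCD was higher in 3 of 6 cows and SREBF1 in 4 of 6. Both signs hung on single cows: without cow 4319 the values were 0.23 and 0.11, without cow 4345 they were 0.09 and 0.07, and SCD was 0.01 without cow 4408. The intervals of all 4 genes lay within a 2-fold change either way, and smaller changes could not be told from none.

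**Figure D2:**
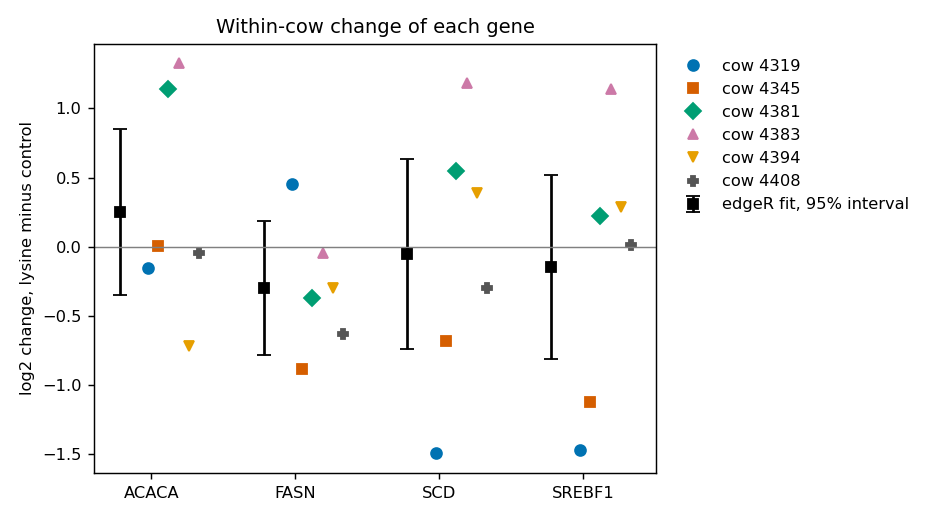
Within-cow log2 change of normalised CPM, lysine minus control, for the 4 genes; coloured points are the 6 cows and black squares the edgeR fit with its 95% interval. All 4 intervals include 0, and the points of SCD and SREBF1 run from about the same lowest cow (4319) to the same highest cow (4383).

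As a share of all counts, FASN was 0.476 ± 0.171% in control and 0.316 ± 0.128% in lysine libraries (SD, n = 6 each), lower in 5 of 6 cows, with a mean log2 change of -0.60 (exact two-sided sign-flip permutation p = 0.156). The shares of SCD (mean log2 change -0.37) and SREBF1 (-0.46) were also lower in 5 of 6 cows each (exact permutation p = 0.0938 for both), and that of ACACA in 3 of 6 (-0.05, exact permutation p = 0.844). With 6 cows this test cannot give a p below 0.0313. How many of all genes were lower in at least 5 of 6 cows as shares was not counted. Scaled by library totals alone, however, the median over all genes was at -0.26 on the log2 scale, against 0.04 with TMM. Measured from that median, FASN lay at -0.34 with TMM and -0.36 with totals, ACACA at 0.22 with both, SCD at -0.09 and -0.10, and SREBF1 at -0.19 and -0.20. The sign of ACACA itself flipped, from 0.25 with TMM to -0.044 with totals.

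The lysine libraries of cows 4383 and 4381 had the lowest TMM factors, 0.444 and 0.584, and the 2 highest lysine levels of ACACA, SCD and SREBF1, though not of FASN. In cow 4383 the within-cow log2 changes in normalised CPM were 1.33 for ACACA, 1.18 for SCD and 1.14 for SREBF1, whereas as shares of all counts they were -0.15, -0.30 and -0.33. In cow 4381 ACACA was higher on both scales, by 1.14 and 0.53, while SCD and SREBF1 were higher in normalised CPM (0.55 and 0.22) and lower as shares (-0.06 and -0.39). FASN was lower on both scales in both cows. The part of the make-up of those 2 libraries in the values was not tested.

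Count ratios between the genes need no scaling between libraries, since both counts come from the same library. The ratio of SCD to SREBF1 had the narrowest range of the 6 pairs: between 15.4 and 29.99 SCD counts per SREBF1 count over the 12 libraries, a 1.94-fold range. SCD alone spanned 4.10-fold and SREBF1 4.73-fold in normalised CPM, but 2.54-fold and 2.21-fold as shares of all counts, which lies closer to the range of the ratio. The SD of the log2 ratio of SCD to SREBF1 over the 12 libraries was 0.34. Ranked by that SD, SREBF1 was 55 of 7357 genes at 5 CPM or more as a partner of SCD (median 0.81), and SCD was 28 of 7357 as a partner of SREBF1 (median 0.87). The within-cow change of this ratio was 0.10 ± 0.27 on the log2 scale (SD, n = 6, higher in 4 of 6 cows, exact two-sided sign-flip permutation p = 0.344, adjusted p = 0.609 over 6 pairs).

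The ratio of FASN to the desaturase varied more. FASN counts over SCD counts ran from 0.989 to 4.63, a 4.68-fold range, with an SD of the log2 ratio of 0.68, and SCD ranked 3220 of 7357 as a partner of FASN. The ratio was lower with lysine in 5 cows, by 0.426-fold in cow 4383 to 0.866-fold in cow 4345. In cow 4319 it was 3.86-fold higher: its control library held 74090 FASN and 74931 SCD counts, and its lysine library 23621 and 6186. Over the 6 cows the mean log2 change was -0.24 ± 1.14 (SD, exact permutation p = 0.656, adjusted p = 0.788 over 6 pairs). With 1 cow left out it ran from -0.68 (without cow 4319) to -0.04 (without cow 4383). Titles and descriptions gave the same treatment for each library, those of cow 4319 included. Nothing else checked the labels of any cow, and exchanging the 2 libraries of a cow would turn the sign of its changes. Cow 4319 was also the only cow with the shallower library under lysine, 5446799 counts beside 31110805 in its control. Over the 6 cows the change of FASN over SCD gave r = -0.96 with the change of the log2 library total (exact permutation p = 0.0167, adjusted p = 0.0787). The part of depth in this ratio was not tested.

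ACACA counts over SCD counts were higher with lysine in 5 of 6 cows, from 1.10-fold in cow 4383 to 2.54-fold in cow 4319, and 0.464-fold in cow 4394. The mean log2 change was 0.32 ± 0.82 (SD, n = 6, exact permutation p = 0.406, adjusted p = 0.609). With 1 cow left out it ran from 0.11 (without cow 4319) to 0.60 (without cow 4394). ACACA over FASN was higher in 4 of 6 cows, with a mean log2 change of 0.56 ± 0.89 (exact permutation p = 0.219, adjusted p = 0.609). No ratio among the 6 pairs passed the threshold.

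**Figure D3:**
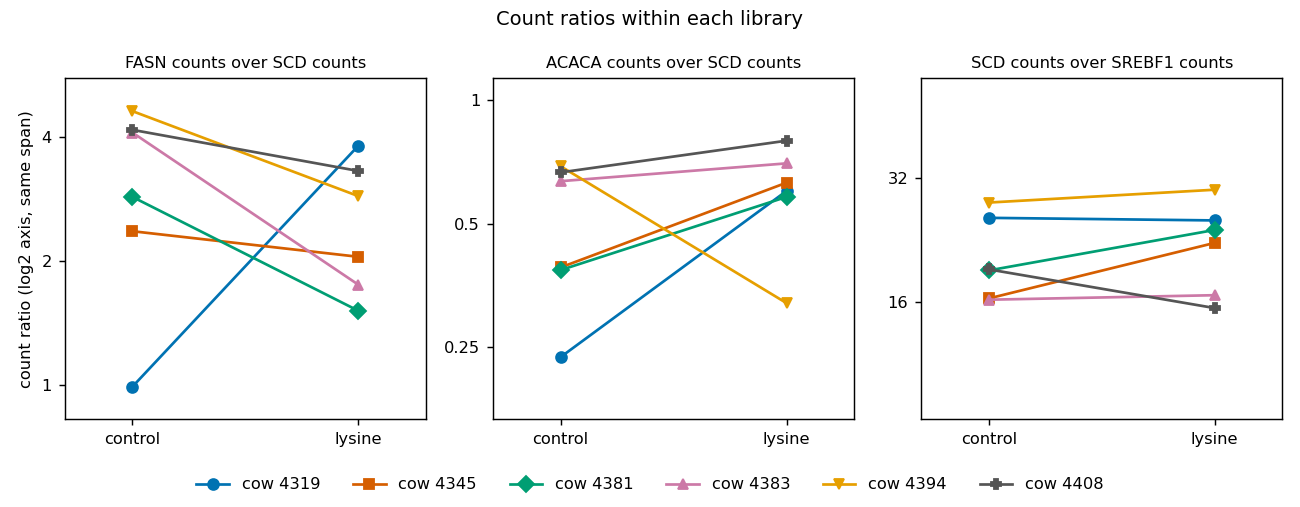
Ratio of raw counts within a library (log2 axis, each panel spanning the same number of doublings) for FASN over SCD, ACACA over SCD and SCD over SREBF1, 1 line per cow. SCD over SREBF1 stays between 15.4 and 29.99, while FASN over SCD runs from 0.989 to 4.63 and is higher with lysine in cow 4319 alone.

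The genes were then compared over the 6 cows, because the 2 libraries of a cow are not independent. Within-cow changes of SCD and SREBF1 went together (Pearson r = 0.96, exact permutation p = 0.0028, adjusted p = 0.0167 over 6 pairs; Spearman rho = 0.94, exact permutation p = 0.0167, adjusted p = 0.1). Without cows 4319 and 4383, the 2 farthest from the median of SCD, r was 0.86 over 4 cows. Scaled by totals alone, r was 0.82 (exact permutation p = 0.0306, adjusted p = 0.183). B codes hold 3 cows each, too few to give the relation within a code.

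No other pair of within-cow changes passed. ACACA gave r = 0.58 with SCD, 0.52 with SREBF1 and 0.08 with FASN (rho 0.60, 0.37 and -0.14; exact permutation p = 0.236, 0.249 and 0.907, adjusted 0.497, 0.497 and 0.907). For the first 2 of these r was -0.65 and -0.59 without cows 4383 and 4381, so they rested on those cows. FASN gave r = -0.16 with SCD and -0.08 with SREBF1 (rho 0.09 and 0.14; exact permutation p = 0.765 and 0.904, adjusted 0.907 for both). Cow 4319 decided these values in normalised CPM: without it r was 0.98 and 0.96 over 5 cows (exact permutation p = 0.0167 and 0.0083, adjusted 0.05 for both). In cow 4319 FASN was 1.37-fold and SCD 0.354-fold of control. Among the other cows, in normalised CPM, FASN was lowest in the cow where SCD was lowest and closest to control where SCD was highest. That order depended on the scaling. As shares of all counts, FASN was lowest among them in cow 4383 (log2 change -1.53, SCD -0.30) and SCD in cow 4345 (-0.56, FASN -0.76). With totals, r over the 6 cows was -0.71 for FASN with SCD and -0.50 with SREBF1, and r without cow 4319 was not taken.

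**Figure D4:**
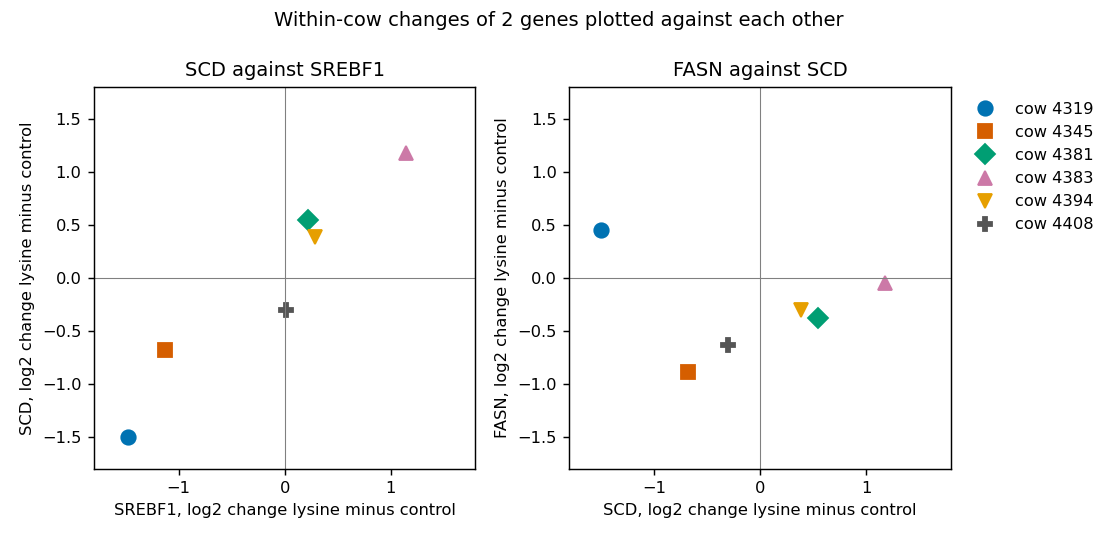
Within-cow log2 changes (lysine minus control) of SCD against SREBF1 and of FASN against SCD, 1 point per cow. In normalised CPM, SCD and SREBF1 lie along a line (r = 0.96), and FASN against SCD does so only without cow 4319. The order of the other cows differs as shares of all counts.

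Averaged over its 2 libraries, a cow with more of one transcript tended to have more of the others, but no pair passed after adjustment. The highest value was between ACACA and SREBF1 (r = 0.92, exact permutation p = 0.0097, adjusted p = 0.0583; rho = 0.89, exact permutation p = 0.0333, adjusted p = 0.2), and r was 0.89 without cows 4345 and 4383. The other 5 pairs lay between r = 0.51 (FASN and SREBF1) and 0.80 (SCD and SREBF1), with exact permutation p of 0.0542 to 0.315, adjusted 0.112 to 0.315, and rho of 0.31 to 0.77. FASN with SCD and with SREBF1 turned to -0.22 and -0.21 without cows 4345 and 4319. Scaled by totals alone, 3 of the 6 signs turned, among them that of SCD and SREBF1 (-0.19).

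Cow 4345 had the lowest mean of ACACA, FASN and SCD, and cow 4394 that of SREBF1. FASN averaged 1964 normalised CPM in cow 4345 and 3233 to 4700.2 in the other 5 cows. ACACA averaged 423 in cow 4345 and 585 to 1163 in the others. From the lowest to the highest cow the genes differed by 2.40-fold (SREBF1), 2.45-fold (FASN), 2.48-fold (ACACA) and 2.51-fold (SCD), on cow means of log2 CPM.

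These differences between cows were not past the threshold for any of the 4 genes, against 1.42% of all genes tested (161 genes; edgeR quasi-likelihood F test of the cow terms, adjusted p under 0.05). Adjusted p was 0.362 for FASN, 0.397 for ACACA, 0.470 for SREBF1 and 0.595 for SCD. DESeq2 called FASN (adjusted p = 0.0223), but that tool called 13.4% of all genes between cows; over the alternatives the adjusted p of FASN ran from 0.0223 to 0.999; without cow 4345 the unadjusted p of edgeR went from 0.0649 to 0.705. Of the variance of log2 CPM, cow took 75.8% for FASN, 60.9% for ACACA, 53.8% for SREBF1 and 47.4% for SCD, beside a median of 55.5% over all tested genes. The order of the genes by their spread within cows depended on the scale. In normalised CPM the SD of the within-cow log2 change was lowest for FASN, at 0.47, beside 0.80 for ACACA, 0.96 for SCD, 0.97 for SREBF1 and a median of 0.79 over all genes tested. As shares of all counts it was highest for FASN, at 0.80, beside 0.52 for ACACA, 0.47 for SREBF1 and 0.42 for SCD.

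The sample descriptions also carry a code B (1 or 2, the same in both libraries of a cow) and a code P (different in both); the labels do not say what they mean. FASN was lower with lysine in all 3 cows coded B2 (0.540, 0.772 and 0.645-fold), with a log2 fold change of -0.63 ± 0.29 (SE). In B1 cows the value was 0.03 ± 0.29, from 1.37-fold in cow 4319, 0.967-fold in cow 4383 and 0.813-fold in cow 4394. The difference of -0.67 ± 0.40 did not pass the test (edgeR interaction, unadjusted p = 0.127, adjusted p = 0.737; 0% of genes called), and it was -0.46 without cow 4319. ACACA was at 0.58 ± 0.31 in the 4 cows whose lysine library has the lower P code and -0.38 ± 0.43 in the other 2, a difference of -0.96 ± 0.53 (edgeR interaction, unadjusted p = 0.0974, adjusted p = 0.769; 0% of genes called). Single cows of the 4 were at 1.33 (4383), 1.14 (4381), 0.0045 (4345) and -0.15 (4319), and the other 2 at -0.72 (4394) and -0.04 (4408). The lysine libraries of cows 4383 and 4381 had the lowest TMM factors, and as a share ACACA was at -0.15 in cow 4383. For the remaining genes the adjusted p was 0.918 or higher in both comparisons.

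Sequencing depth also differed within cows. The lysine library of cow 4319 was the shallowest of all, 5446799 counts beside 31110805 in its control. In cows 4381 and 4383 the lysine library was the deeper, 56550977 beside 12613563 counts and 28717005 beside 7401902. The same held in cows 4345 (37949403 beside 25066536), 4394 (17882370 beside 13313917) and 4408 (23619993 beside 16384031). Depth was thus higher with lysine in every cow but 4319, which alone was higher for FASN and for FASN over SCD. For both, the change with lysine had the opposite sign to the change of depth in each of the 6 cows. Over the 6 cows the change of the log2 total gave r = 0.88 with the change of SCD (rho 0.71, exact permutation p = 0.0236 for r and 0.136 for rho), 0.78 with SREBF1 (rho 0.49, exact permutation p = 0.0542 and 0.356), 0.64 with ACACA (rho 0.89, exact permutation p = 0.146 and 0.0333) and -0.54 with FASN (rho -0.37, exact permutation p = 0.272 and 0.497). Adjusted over 10 relations, none of these 4 passed (0.0787, 0.108, 0.243 and 0.389 for r). Scaled by totals alone, FASN gave r = -0.96 and passed (exact permutation p = 0.0097, adjusted p = 0.0486). Without cows 4319 and 4381 r was 0.78, 0.70, 0.95 and 0.69. The sign for FASN rested on cow 4319, since r was 0.59 without it and -0.54 without cow 4381. With the log2 library total in the model, the log2 fold changes with lysine were -0.33 for SCD, -0.39 for SREBF1, 0.10 for ACACA and -0.22 for FASN (edgeR, adjusted p = 0.996 for each). The part of depth in the shared change of SCD and SREBF1 was not tested, and the ratio of SCD to SREBF1 counts gave r = 0.30 with the change of depth (rho 0.49, exact permutation p = 0.599 and 0.356).

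**Figure D5:**
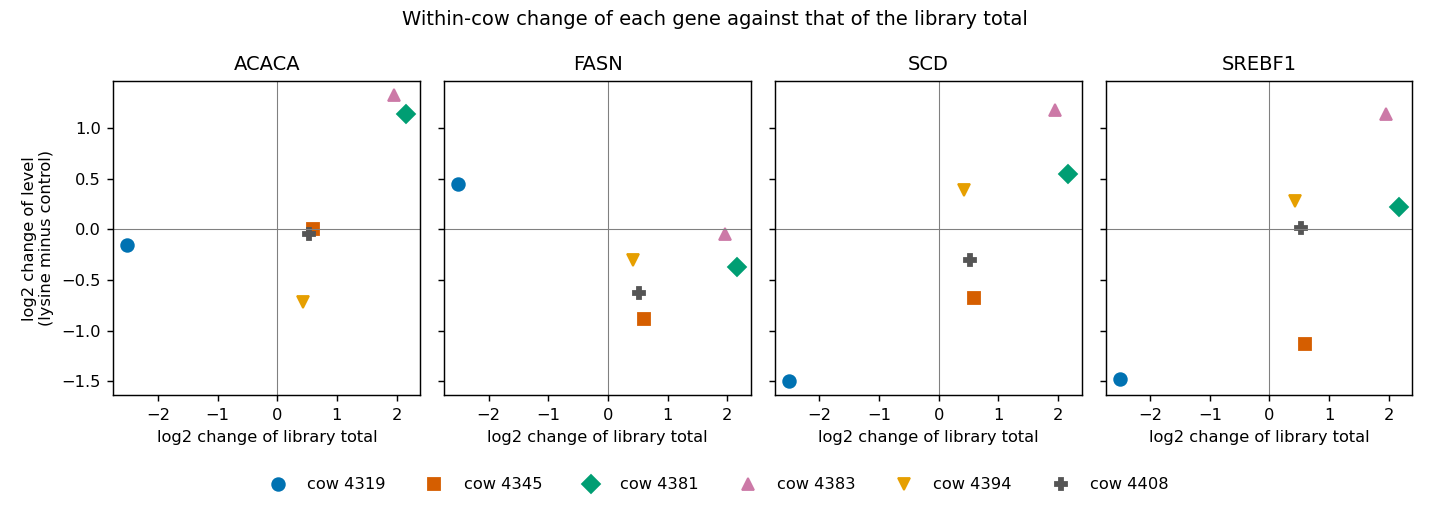
Within-cow log2 change of each gene (lysine minus control, normalised CPM) against the within-cow log2 change of the library total, 1 point per cow. Cow 4319 lies alone on the left, with the lowest SCD and SREBF1 and the highest FASN change.

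Across the 12 libraries, the likeness of the 4 genes to each other was set beside that of all genes at 5 CPM or more, as a description. Points share cows, depth and scaling. SREBF1 was among the genes most like SCD (r = 0.87, rank 58 of 7357, median r -0.05), and SCD among those most like SREBF1 (rank 45). ACACA ranked 322 for SREBF1 and 454 for SCD. FASN stood apart, with r of 0.34 to 0.49 to the other 3, and the closest of them, ACACA, ranked 1480 among the genes most like FASN. The 2 genes most like the mean pattern of all 4 were ENSBTAG00000014633 (r = 0.96) and ENSBTAG00000009602 (r = 0.96), at mean levels of 36.3 and 328 normalised CPM. Both were picked by their likeness to that mean, to which FASN, the member least like the others, is the least tied. Their r with SCD (0.92 and 0.93) and with FASN (0.50 and 0.56) therefore partly follows from the choice. Neither was called for lysine, as 0 of all 11323 genes were (edgeR, log2 fold change -0.05 ± 0.24 and 0.06 ± 0.25, adjusted p = 1).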

How the data were processed

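The deposited values are raw counts, whole numbers per gene and library (12 libraries); per the labels' protocols, RNA was extracted with Trizol from centrifuged milk fat and cleaned on a column. The aligner, counting tool, strand setting, build and annotation are not stated in the labels or the file, and 0 of the 24616 IDs matched the RefSeq table of 37063 genes, so the pathway and cell marker lists were not used. The 4 genes, lists and tests were chosen with earlier results of these data known.

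Genes were kept by filterByExpr (minimum count 10), leaving 11323. edgeR 4.0.16 (R 4.3.3) fitted robust quasi-likelihood models with TMM factors, cow and treatment, two-sided, threshold 0.05 after Benjamini-Hochberg adjustment. Its fold change estimates were checked on counts simulated from the fitted model, a check that shares the assumptions of that model. Standard errors were derived from the F statistic, intervals are 95% and unadjusted. The block comes from the animal: libraries of a cow correlated at -0.02 to 0.66 (deviations from group means, across genes; median 0.19, beside -0.03 between cows). Log2 CPM for correlations had a prior count of 2; ranked count ratios an offset of 0.5. Permutation tests are exact and two-sided (SciPy 1.17.1). Named genes: the 4 members, and the 2 most like their mean pattern, as IDs have no names. Alternatives were DESeq2 1.42.0, limma 3.58.1 voom, other scalings, no filter, no block, depth as a covariate, a prior count of 0.5 and each cow left out. Relations to depth were added after the data were seen.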

Additional observations from a re-analysis of the deposited data

Results flagged for a closer look

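Among 18 groups of 6 values, 2 held a value whose gap to the next exceeded the 95% critical value of Dixon's test. Chance does so for about 1 in 20 groups. The lysine library of cow 4345 had 1378 normalised CPM of FASN, against 3685 in the next lysine library; its control, at 2550, was the lowest control. Leaving cow 4345 out, FASN had a log2 fold change of -0.17. The within-cow log2 change of FASN over SCD counts was 1.95 in cow 4319, against -0.21 in the next cow (4345). That cow's lysine library was the shallowest, at 5446799 counts; the part of depth in this value was not tested.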

How the results depend on the processing

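None of the 4 genes was called for lysine in any of 14 alternatives each, among them no replicate block (log2 fold change 0.44 for ACACA, -0.28 for FASN, 0.0035 for SCD, a reversal, and -0.01 for SREBF1); the block changed no call. Leaving out a cow moved log2 fold changes over 0.04 to 0.45 (ACACA), -0.45 to -0.17 (FASN), -0.30 to 0.23 (SCD) and -0.41 to 0.11 (SREBF1). Library totals as the only scaling turned ACACA to -0.044. Over all genes the lysine count was 0, and 1 without a filter. The cow count was 161, 1518 with DESeq2, 568 with voom, 829 without a filter, 396 with totals, 18 with the total as a covariate and 9 to 429 with a cow left out. By B code DESeq2 called 39 genes, edgeR unfiltered 30, and edgeR without 1 cow 0 to 1. By P order these were 114, 48 and 0 to 847, and 3 with totals. None of the 4 genes was among those called by B or P. Their own differences ran, with a cow left out, over -0.25 to 0.80 (ACACA), -0.93 to 0.41 (SCD) and -1.01 to 0.30 (SREBF1) by B code and -0.31 to 0.59 (SCD) by P order; with totals SCD was 0.10 by B and FASN 0.017 by P.

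With totals, correlations of within-cow changes were 0.82 (SCD and SREBF1, no longer past the threshold), -0.50 (ACACA and SCD) and -0.58 (ACACA and SREBF1), and those of cow means -0.046 (ACACA and SCD), -0.18 (FASN and SREBF1) and -0.19 (SCD and SREBF1). Without the 10 most abundant genes in TMM, FASN and SREBF1 gave 0.0029. With a cow left out, SCD and SREBF1 changes kept r of 0.93 to 0.98, none past the threshold (adjusted exact permutation p = 0.05 to 0.1), as 5 cows allow few small p values. The ranges were -0.13 to 0.46 (ACACA and FASN), -0.44 to 0.98 (FASN and SCD) and -0.46 to 0.96 (FASN and SREBF1) for changes, and -0.078 to 0.78 (FASN and SCD) for means. The log2 share change of ACACA ran over -0.16 to 0.14, and the change of FASN over SREBF1 counts over -0.55 to 0.070. Relations to depth ran over -0.74 to 0.59 (FASN), -0.83 to 0.40 (ACACA over SCD), -0.50 to 0.43 (ACACA over SREBF1) and 0.81 to 0.99 (ACACA over FASN); with totals they were -0.0076 (ACACA) and -0.96 (FASN, now past the threshold, adjusted exact permutation p = 0.0486). The cause was not tested for any of these.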

Other observations

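The count ratio of ACACA to FASN, which needs no scaling between libraries, followed the change of library depth within cows, a relation looked at after the data were seen. In order of rising change of the library total, from cow 4319 to cow 4381, the ratio with lysine was 0.657, 0.748, 1.504, 1.86, 2.59 and 2.85-fold of control (rho = 1 over 6 cows, exact permutation p = 0.0028, adjusted p = 0.0278 over 10 relations; r = 0.85, exact permutation p = 0.0014, adjusted p = 0.0139). Without cows 4319 and 4381, r was 0.74 over 4 cows. Leaving out any 1 cow ended the call for r (adjusted exact permutation p = 0.0833 to 0.292). FASN over SCD gave r = -0.96 (exact permutation p = 0.0167, adjusted p = 0.0787) and rho = -0.71 (exact permutation p = 0.136, adjusted p = 0.340).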
